A study of Mus musculus with 12 samples.

Results

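Genes for the pore-forming subunits of the ionotropic receptors for glutamate, GABA, glycine, acetylcholine and serotonin were followed through an ATAC-seq survey of mouse dorsal root ganglia. Members were all RefSeq protein-coding genes whose symbol starts with Gria, Grik, Gabr, Glra, Chrna, Chrnb or Htr3, or with Grin and a digit, which gave 54 of 21887 coding genes. ATAC-seq uses a transposase to insert adapters into accessible DNA, and a peak summit is the position where insertions pile up most within a peak. For each gene the summits inside it or within 50 kb of either end were counted. All coordinates are mm10, counted from 1.

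Each group was represented by 1 list of summits for its 3 libraries, and 12 libraries were made in all. The groups were Silc1-/- mice with an injured sciatic nerve, Silc1-/- mice after a sham operation, wild-type mice with an injured nerve, and wild-type mice after a sham operation. Silc1 is a long noncoding RNA; the gene table has no entry under that name, and the genotype labels were not checked here. The injury was a forceps crush at mid-thigh, and 6 fresh ganglia of levels L4 to L6 went into an extraction, so neurons, glia, vascular and immune cells were sampled together. The labels give neither age, nor the time between crush and dissection, nor whether animals were pooled. With 1 list a group there is no spread between animals and no test between groups: every difference given here is one between lists. Intervals cover counting error only. In whole ganglia, fewer cells of a type and less open chromatin per cell cannot be told apart.

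Ionotropic receptors are channels that open when transmitter binds. Glutamate channels of the AMPA, kainate and NMDA classes are tetramers, whereas GABA-A, glycine, nicotinic and 5-HT3 channels are pentamers of one related superfamily. In sensory neurons of the dorsal root ganglion these channels are known on cell bodies, axons and central terminals. Kainate receptors built on the Grik1 product are a classical feature of small-diameter neurons, GABA-A receptors depolarise the terminals, and 5-HT3 and nicotinic channels are found on parts of the afferent population.

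The lists held 35815 summits in Silc1-/- injured, 48332 in Silc1-/- sham, 43841 in wild-type injured and 27279 in wild-type sham ganglia. The median score, which the authors' peak caller gave each summit as a −log10 value, was 4.77, 4.97, 5.72 and 6.33 in the same order. Because longer lists hold more summits in total, counts were scaled to the mean list length before lists were compared. Genes did not all gain summits in proportion to list length. After scaling, the fold for Silc1-/- sham over wild-type sham was 0.82 over coding genes of 100 kb or less and 1.20 over longer ones. Scaling can thus lower the ratio of a short gene whose raw counts are nearly equal. Depth is unknown, since the files hold no read counts. Markers fixed for the analysis placed summits near all 15 sensory neuron genes, all 9 glial genes, all 8 macrophage genes, all 6 endothelial and mural genes and all 6 central neuron genes, and near all but 2 of 8 skeletal muscle genes, so nearby summits did not separate cell types. Within 1 kb of a gene end, 8 (Silc1-/- injured), 11 (Silc1-/- sham), 9 (wild-type injured) and 6 (wild-type sham) of the 15 sensory neuron genes had a summit. In the same order the counts were 3, 4, 6 and 3 of 9 glial genes, 0, 0, 1 and 0 of 8 macrophage genes, 0, 1, 2 and 0 of 6 endothelial and mural genes, 2, 2, 2 and 1 of 8 muscle genes and 1, 2, 1 and 0 of 6 central neuron genes. Markers of cells foreign to the ganglion thus had as many end summits as macrophage markers or more, and end summits did not sort all cell types either.

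The receptor genes seldom had an accessible site at their own ends. Within 1 kb of either end, 9 of 54 members had a summit in the Silc1-/- injured list (16.7%, 95% Wilson interval 9.02 to 28.7), 11 in the Silc1-/- sham list (20.4%, 11.8 to 32.9), 11 in the wild-type injured list (20.4%, 11.8 to 32.9) and 7 in the wild-type sham list (13.0%, 6.42 to 24.4). Over all coding genes the shares were 45.6%, 50.9%, 51.9% and 46.2% in that order. Each member interval lies below the share of all coding genes in the same list. In none of the 4 lists did 37 members (68.5%) have a summit at an end, against 43.4% of all coding genes, and 4 members (7.41%) had one in every list, against 40.8%.

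Among the genes with a summit at an end in every list were Grin1, which encodes the subunit required in every NMDA receptor, Chrnb1, the beta subunit of the muscle endplate receptor, and the GABA-A gene Gabra5. Gabra2, Gria4 and Grin3a had a summit at an end in 3 lists, Chrna7, Gabrr2 and Grik4 in 2, and Chrnb2, Gabra4, Gabrb1, Grik1, Grik5, Grin2d and Htr3b in 1. Gabra4 and Gabrb1 share the single summit that put both into the wild-type injured list, at chr 5 position 71657916, with a score of 1.99, because the genes start back to back there.

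**Figure D1:**
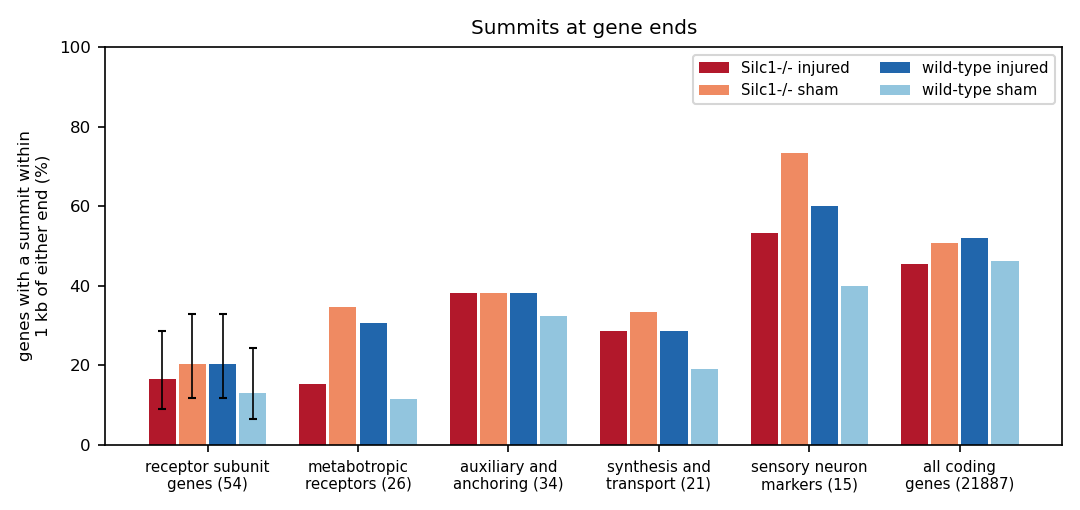
Percent of genes with a summit within 1 kb of either end (y axis) for the receptor subunit genes, 4 related gene lists and all coding genes (x axis, number of genes in brackets), 1 bar per summit list. Error bars on the receptor genes are 95% Wilson intervals. The receptor bars lie between 13.0% and 20.4%, those of all coding genes between 45.6% and 51.9%.

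Low counts at gene ends were shared by related lists to different degrees. Metabotropic receptors for the same transmitters had a summit at an end for 15.4% of 26 genes in Silc1-/- injured, 34.6% in Silc1-/- sham, 30.8% in wild-type injured and 11.5% in wild-type sham ganglia. For 34 auxiliary and anchoring proteins, such as the AMPA receptor partner Cacng2 and the scaffold gephyrin (Gphn), the shares were 38.2%, 38.2%, 38.2% and 32.4%. For 21 genes of transmitter synthesis and transport they were 28.6%, 33.3%, 28.6% and 19.0%. The 15 sensory neuron markers stood at 53.3%, 73.3%, 60.0% and 40.0%.

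Start sites gave a similar picture for the members as a set. RefSeq promoter entries for assembly GRCm38.p6, the assembly behind mm10, matched 39 of the 54 members. Within 1 kb of a start site, 7 of these 39 had a summit in Silc1-/- injured (17.9%), 11 in Silc1-/- sham (28.2%), 9 in wild-type injured (23.1%) and 7 in wild-type sham ganglia (17.9%), against 48.6%, 53.8%, 54.8% and 49.6% of 17492 coding genes. Grik2, Grin1, Grin2d and Chrnb1 had one in all 4 lists. The measures differ gene by gene, since a start site can lie over 1 kb inside the gene's outermost end. Grik2 had no summit at an end in any list, and Grin2d had one in 1 list.

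Promoters rich in CG dinucleotides are commonly accessible in most cell types, so the members were divided by their CG count, at a threshold chosen after seeing the data. Of 13 members with at least 20 CG in the 300 bp window, 7 (53.8%) had a start-site summit in any list and 2 (15.4%) in every list, against 92.2% and 77.4% of 6803 coding genes at that CG count. At a threshold of 15 the any-list share was 56.2% of 16 members against 90.5%, and at 25 it was 70.0% of 10 members against 92.4%. The CG-rich members without any start-site summit were Chrna4, Chrna5, Gabre, Gabrq, Grik3 and Grin2c. The 26 members with fewer CG had a summit in any list in 26.9% of cases, against 37.7% of such coding genes.

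Promoters of 6 members are printed to show this contrast: the CG-rich promoters of Grik2 and Grin1, with a summit within 1 kb of the start site in every list, that of Chrna7, with one in some lists, those of Grik3 and Chrna4, with one in none, and the CG-poor promoter of Gabra6, a gene without any summit. The printed windows are shorter than that distance and do not hold every such summit. Each runs 5′ to 3′ on the gene's own strand over a 300 bp window around the start site, from RefSeq (GRCm38.p6), with CG dinucleotides in capitals. The locations are chr10:49788705-49789004 on the minus strand for Grik2 (26 CG), chr2:25319138-25319437, minus, for Grin1 (33 CG), chr7:63212477-63212776, minus, for Chrna7 (35 CG), chr4:125490446-125490745, plus, for Grik3 (50 CG), chr2:181039128-181039427, minus, for Chrna4 (33 CG) and chr11:42321023-42321322, minus, for Gabra6 (2 CG).
Grik2: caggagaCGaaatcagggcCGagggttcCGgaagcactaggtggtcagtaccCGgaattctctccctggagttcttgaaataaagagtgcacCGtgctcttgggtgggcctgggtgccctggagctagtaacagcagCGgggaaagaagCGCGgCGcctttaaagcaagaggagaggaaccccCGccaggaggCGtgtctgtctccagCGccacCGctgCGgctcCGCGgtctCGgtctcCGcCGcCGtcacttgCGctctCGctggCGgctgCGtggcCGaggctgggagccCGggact
Grin1: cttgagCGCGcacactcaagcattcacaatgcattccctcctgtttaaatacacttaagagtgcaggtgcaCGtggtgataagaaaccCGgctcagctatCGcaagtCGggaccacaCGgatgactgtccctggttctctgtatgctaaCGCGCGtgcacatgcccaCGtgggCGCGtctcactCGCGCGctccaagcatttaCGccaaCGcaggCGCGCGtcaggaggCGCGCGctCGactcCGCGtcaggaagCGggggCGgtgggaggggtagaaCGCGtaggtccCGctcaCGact
Chrna7: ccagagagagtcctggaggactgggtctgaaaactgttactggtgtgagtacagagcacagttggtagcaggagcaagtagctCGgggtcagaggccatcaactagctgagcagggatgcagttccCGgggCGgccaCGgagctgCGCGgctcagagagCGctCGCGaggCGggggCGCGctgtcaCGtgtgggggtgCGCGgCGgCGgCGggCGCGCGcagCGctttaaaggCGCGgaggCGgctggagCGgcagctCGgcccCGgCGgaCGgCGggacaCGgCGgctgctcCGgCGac
Grik3: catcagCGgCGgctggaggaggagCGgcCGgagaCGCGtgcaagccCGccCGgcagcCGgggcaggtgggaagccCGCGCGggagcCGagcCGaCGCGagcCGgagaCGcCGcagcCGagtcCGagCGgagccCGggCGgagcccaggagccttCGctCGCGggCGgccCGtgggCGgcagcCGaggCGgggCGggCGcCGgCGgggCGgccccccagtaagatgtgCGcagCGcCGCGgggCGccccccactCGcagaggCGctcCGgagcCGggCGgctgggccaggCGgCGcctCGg
Chrna4: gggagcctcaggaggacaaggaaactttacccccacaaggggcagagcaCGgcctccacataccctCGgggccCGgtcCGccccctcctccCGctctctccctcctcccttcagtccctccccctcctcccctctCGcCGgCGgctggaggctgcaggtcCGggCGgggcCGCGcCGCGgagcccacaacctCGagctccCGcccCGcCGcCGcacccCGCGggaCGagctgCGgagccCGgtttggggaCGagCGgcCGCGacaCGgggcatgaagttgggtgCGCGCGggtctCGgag
Gabra6: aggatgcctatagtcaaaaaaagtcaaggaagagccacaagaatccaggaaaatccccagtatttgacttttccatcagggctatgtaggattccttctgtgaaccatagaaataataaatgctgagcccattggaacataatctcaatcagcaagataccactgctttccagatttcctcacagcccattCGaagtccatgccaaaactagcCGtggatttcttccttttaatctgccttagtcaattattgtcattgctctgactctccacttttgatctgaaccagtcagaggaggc

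The Grik2 summits fell 221 bp after the start site in Silc1-/- injured (score 6.55), 27 bp after it in Silc1-/- sham (4.29), 1 bp before it in wild-type injured (12.5) and 40 bp after it in wild-type sham ganglia (5.59). Those of Grin1 fell 10 bp (5.85), 100 bp (4.29), 51 bp (5.19) and 0 bp (2.92) from the start site in the same order of lists. The Grik2 score in wild-type injured ganglia was the highest of these, and the Grin1 score in wild-type sham ganglia the lowest. At Chrna7, which encodes the subunit of homomeric nicotinic channels, the Silc1-/- injured list had summits 57 bp before (7.31) and 384 bp after (3.73) the start site and the wild-type sham list had one 85 bp before it (3.54), while the Silc1-/- sham and wild-type injured lists had none. The Chrnb1 summit lay inside the transcribed part, 534, 425, 501 and 466 bp after the start site, with scores of 13.4 in Silc1-/- injured, 32.3 in Silc1-/- sham, 67.6 in wild-type injured and 33.0 in wild-type sham ganglia, the highest of any member's start-site summits.

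Motif matches were counted in the same windows. Over 44 promoter windows of the members and 21263 RefSeq windows, read on both strands, the AP-1 motif TGANTCA was found in 4.55% against 6.99%, the GC box GGGCGG in 45.5% against 46.2%, the E-box CANNTG in 65.9% against 69.0%, the SOX core ACAANG in 34.1% against 38.1% and TATAAA in 13.6% against 12.6%. The CRE, TGACGTCA, was in 0 member windows against 2.23%. Of the REST partial sites, TTCAGCACC was in 0 against 0.414% and GGACAG in 34.1% against 22.3%. These matches describe letters in a window and not binding.

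Away from the ends, the summits counted for these genes fell mostly inside long genes or at neighbouring genes. All windows together held 145 summits in Silc1-/- injured, 216 in Silc1-/- sham, 176 in wild-type injured and 125 in wild-type sham ganglia. Inside the gene but over 1 kb from its ends lay 37.2%, 42.6%, 35.2% and 27.2% of these, and within 1 kb of an end of another coding gene lay 25.5%, 20.8%, 29.0% and 39.2%. Own ends took 8.97%, 6.94%, 7.39% and 5.60%. Counting a summit once where windows overlap, members held 0.391%, 0.435%, 0.392% and 0.451% of the lists. The median member had 10 summits over the 4 lists, against 14 for all coding genes, and Gabra6, Gabrb2, Gabre and Glra2 had none (7.41% of members against 8.27% of coding genes).

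**Figure D2:**
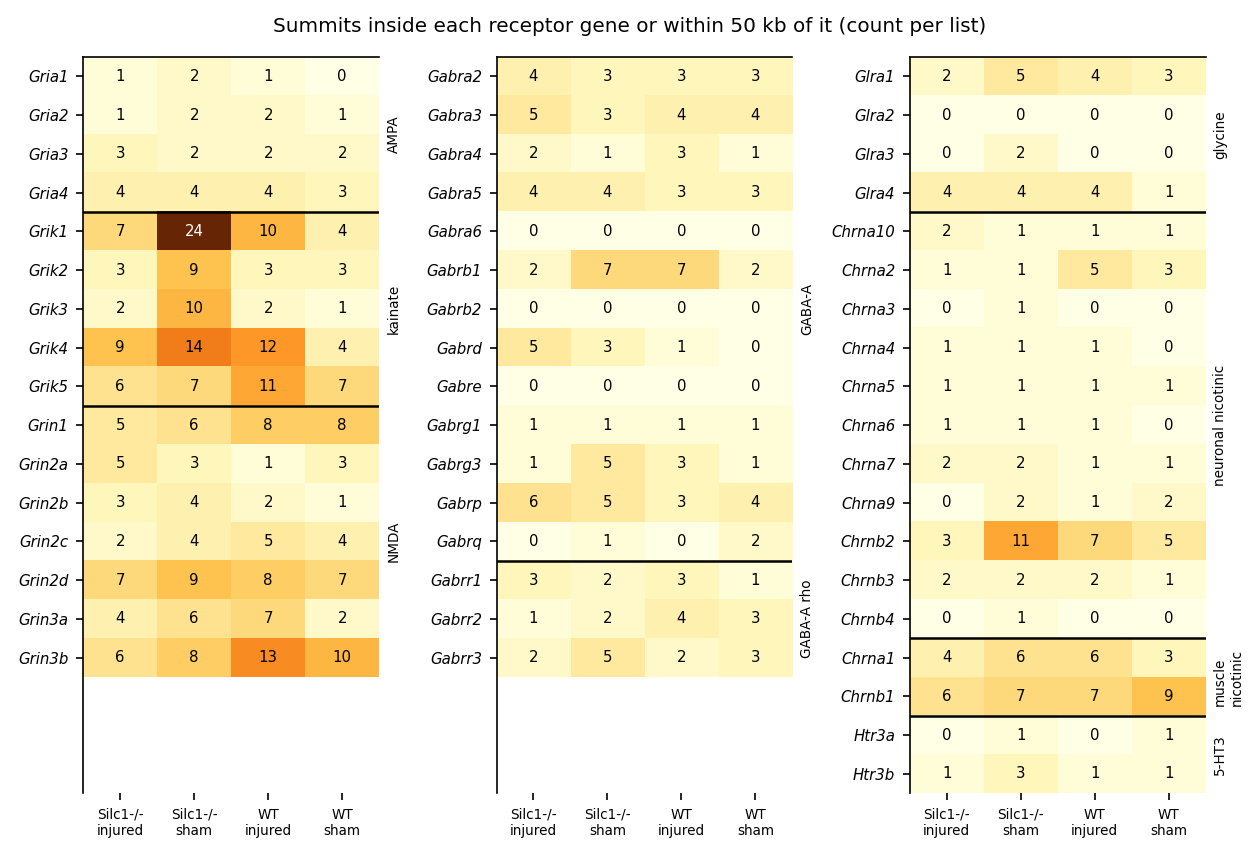
Summit count inside each receptor gene or within 50 kb of it (cells, shaded by count), 1 row per gene shown, grouped by receptor family, and 1 column per summit list. Grik1 in the Silc1-/- sham list has the highest count, 24, and 4 genes have 0 in every column.

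Joining summits within 200 bp gave 320 loci near members out of 78381 in all. Of these, 63 (19.7%) were found in all 4 lists, against 18.3% of all loci. The Silc1-/- sham list alone held 78 (24.4% against 21.2%), the wild-type injured list alone 40 (12.5% against 16.0%), the Silc1-/- injured list alone 32 (10.0% against 10.8%) and the wild-type sham list alone 13 (4.06% against 4.45%). Both injured lists and no other held 7 (2.19% against 2.72%), and both sham lists and no other 8 (2.50% against 1.51%). Of the 63 loci in all 4 lists, 32 lay within 1 kb of an end of another coding gene, 20 inside the member and 3 at the member's own end. The first of these classes can overlap the others. The same shares were not computed over all loci found in 4 lists, so they are not a trait of these genes.

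**Figure D3:**
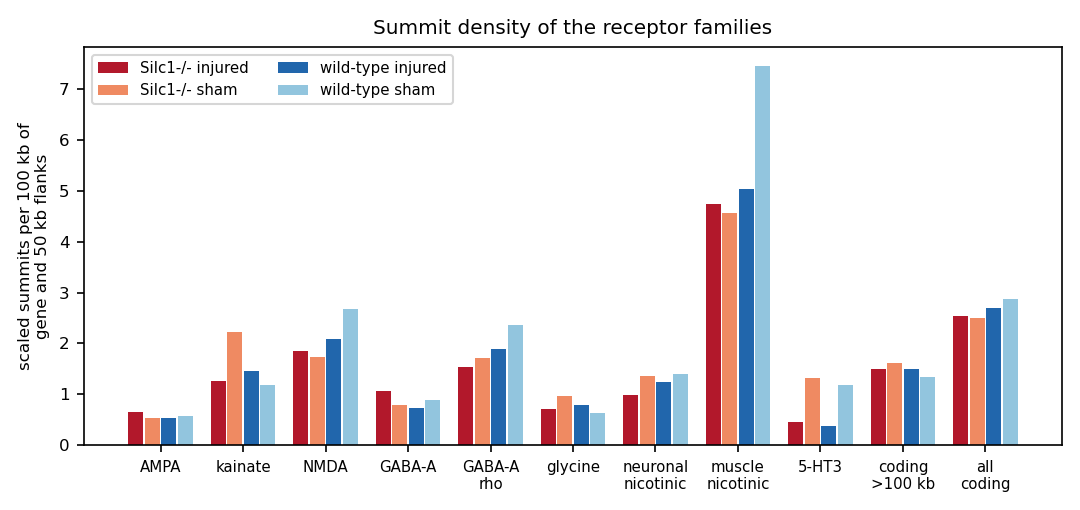
Scaled summits per 100 kb of gene and flanks (y axis) for each receptor family, for coding genes over 100 kb and for all coding genes (x axis), 1 bar per summit list; no replicate error exists. The kainate family stands at 2.23 in Silc1-/- sham against 1.27, 1.46 and 1.17 in the other lists, and the muscle nicotinic family, with 2 genes in gene-dense sequence, is highest throughout.

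Among the receptor families, kainate genes showed the clearest difference between lists, with Grik1 giving the most summits in Silc1-/- sham ganglia. The 5 Grik genes had 27 summits in Silc1-/- injured, 64 in Silc1-/- sham, 38 in wild-type injured and 19 in wild-type sham ganglia. Scaled to list length this was 1.27, 2.23, 1.46 and 1.17 summits per 100 kb, so the Silc1-/- sham list stood above the other 3. The scaled fold was 0.57 for Silc1-/- injured over Silc1-/- sham and 1.24 for wild-type injured over wild-type sham. Between genotypes it was 0.87 for Silc1-/- over wild type after injury and 1.90 after sham operation. Of the 83 kainate summits of the 2 sham lists, 77.1% were in the Silc1-/- list (exact interval 66.6 to 85.6), against 63.9% from list lengths alone. Of the 91 summits of the 2 Silc1-/- lists, 29.7% were in the injured one (20.6 to 40.2), against 42.6% from list lengths. Coding genes over 100 kb had 11884 summits in Silc1-/- injured, 17321 in Silc1-/- sham and 8141 in wild-type sham ganglia. The first interval holds their share for the sham lists, and the second ends just below their share for the Silc1-/- lists. Grik1 alone supplied 24 of the 64 Silc1-/- sham summits and 7 of the 27 Silc1-/- injured ones. No interval was computed for the family without Grik1. Taken singly, each other Grik gene had intervals that hold the list-length shares in both comparisons.

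Long genes in general and sensory neuron markers differed in the same direction, by smaller folds. Coding genes over 100 kb had a scaled fold of 1.20 for Silc1-/- over wild type after sham operation and 0.93 for Silc1-/- injured over Silc1-/- sham, and the 15 sensory neuron markers had 1.52 and 0.69, with 48, 94, 58 and 35 summits in Silc1-/- injured, Silc1-/- sham, wild-type injured and wild-type sham ganglia. The satellite glia and Schwann cell markers stood at 1.09 and 0.99 for the same comparisons and the macrophage markers at 0.76 and 1.20. The part of neuron content, or of list length, in the kainate counts was not tested. When each list was cut to its 27279 highest-scoring summits, the kainate counts were 21, 30, 19 and 19, which gives folds of 1.58 for Silc1-/- over wild type after sham operation and 0.70 for Silc1-/- injured over sham. Folds of long genes at that cut are not given here, so these values do not set kainate genes apart from them.

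Grik1, on chromosome 16 from 87895901 to 88290863, encodes the kainate subunit GluK1 that is abundant in small sensory neurons. It had 7 summits in Silc1-/- injured, 24 in Silc1-/- sham, 10 in wild-type injured and 4 in wild-type sham ganglia, the most of any member over the 4 lists. The log2 ratio, taken on scaled counts plus 1, was -1.24 for Silc1-/- injured over sham, 0.56 for wild-type injured over sham, -0.20 for Silc1-/- over wild type after injury and 1.60 after sham operation. Of the 28 Grik1 summits of the sham lists, 85.7% were in the Silc1-/- list (67.3 to 96.0). Of the 31 of the Silc1-/- lists, 22.6% were in the injured one (9.59 to 41.1). Both intervals leave out the list-length shares of 63.9% and 42.6%. Coding genes over 100 kb, the length class of Grik1, had 11884 summits in Silc1-/- injured, 17321 in Silc1-/- sham and 8141 in wild-type sham ganglia. Both intervals hold the shares that those counts give, close to an edge. These intervals treat summits as independent, which neighbouring summits of 1 gene are not, and say nothing about animals. The Grik1 summits are also part of the kainate counts above, so they are not separate evidence.

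The Grik1 summits formed 26 loci, of which 4 were found in all 4 lists. These lay inside the gene, at 88005460, 88029420, 88104303 and 88174306, and all 4 summits of the wild-type sham list belonged to them. At the first the scores were 8.10 in Silc1-/- injured, 4.97 in Silc1-/- sham, 3.18 in wild-type injured and 2.32 in wild-type sham ganglia, and at the second 8.91, 4.97, 10.7 and 4.20. They were 3.09, 1.87, 1.99 and 6.33 at the third, and 2.48, 8.42, 5.19 and 3.54 at the fourth. The highest score fell in the Silc1-/- sham list at the fourth locus only, though scores also vary with a list's depth. A further 14 loci belonged to the Silc1-/- sham list alone, 2 to the wild-type injured list alone and 1 to the Silc1-/- injured list alone. The Silc1-/- sham summits spread over 449 kb, with 19 inside the gene, 1 at its own end and 4 outside, whereas those of the other lists were all inside and spanned 182 kb in Silc1-/- injured, 248 kb in wild-type injured and 169 kb in wild-type sham ganglia. More summits in a window tend to span more of it, so the spread is not separate from the higher count.

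Most Grik1 summits had a score below 5 in every list. Median Grik1 scores were 3.09 in Silc1-/- injured, 3.78 in Silc1-/- sham, 2.87 in wild-type injured and 3.87 in wild-type sham ganglia, and summits of score 5 or more numbered 2, 5, 2 and 1. At equal list lengths Grik1 had 4, 11, 3 and 4 summits, so the Silc1-/- sham list kept the highest count. Its fold over wild-type sham, with the pseudocount, was 2.40 at equal lengths and 3.03 with the full lists scaled.

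**Figure D4:**
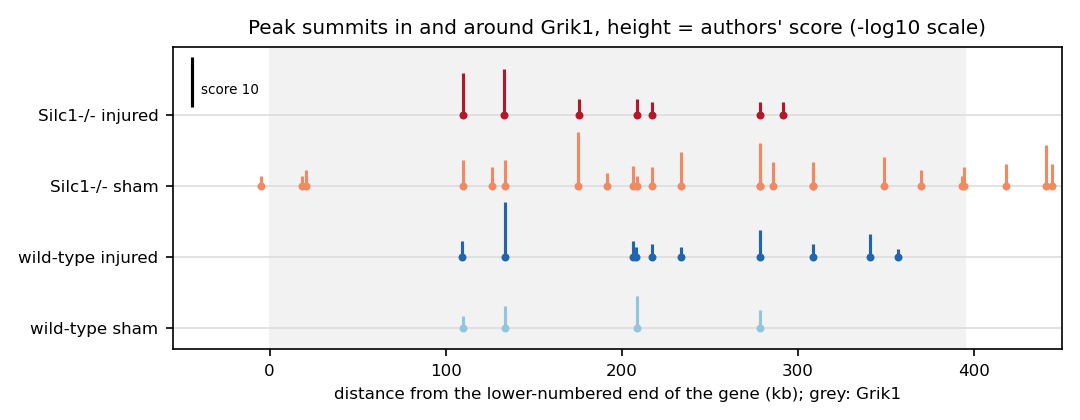
Peak summits along Grik1 and 50 kb to each side (x axis, kb from the lower-numbered gene end, gene shaded grey) in 1 row per summit list; line height is the authors' score on the −log10 scale, with a bar of score 10 as the key. The Silc1-/- sham row has 24 summits along the whole gene, the other rows 7, 10 and 4.

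The other kainate genes differed among themselves. Grik3, on chromosome 4 from 125490259 to 125714173, had 2 summits in Silc1-/- injured, 10 in Silc1-/- sham, 2 in wild-type injured and 1 in wild-type sham ganglia, with 8 of its 11 loci in the Silc1-/- sham list alone. Its log2 ratio was 1.90 for Silc1-/- over wild type after sham operation and -1.51 for Silc1-/- injured over sham, but at equal list lengths its counts were 2, 3, 0 and 1. Grik2, the GluK2 subunit gene, had 3, 9, 3 and 3 summits, and 6 of its 11 loci were in the Silc1-/- sham list alone. Grik4 and Grik5 encode the high-affinity subunits that assemble with the products of the other kainate genes. Grik4 had 9, 14, 12 and 4 summits, and its 26 loci included 9 in the Silc1-/- sham list alone and 7 in the wild-type injured list alone. Grik5, a shorter gene in gene-dense sequence, went the other way after sham operation, with 6, 7, 11 and 7 summits and a log2 ratio of -0.73 for Silc1-/- over wild type.

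AMPA receptor genes, which carry most fast excitatory transmission, had few summits for their length and similar densities in every list: 0.65 scaled summits per 100 kb in Silc1-/- injured, 0.54 in Silc1-/- sham, 0.53 in wild-type injured and 0.57 in wild-type sham ganglia. Gria4 had 4, 4, 4 and 3 summits, with start-site summits 19 bp after the start in Silc1-/- injured (3.09), 15 bp after it in Silc1-/- sham (3.63) and 46 bp after it in wild-type injured (3.18) but none in wild-type sham ganglia. Gria2, whose edited product keeps AMPA channels impermeable to calcium, had 1, 2, 2 and 1 summits. Its CG-rich promoter carried a summit in the Silc1-/- sham list, 1 bp before the start (4.29), and in the wild-type injured list, 125 bp before it (1.99).

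NMDA receptor genes had 32 summits in Silc1-/- injured, 40 in Silc1-/- sham, 44 in wild-type injured and 35 in wild-type sham ganglia, and near 3 of the shorter genes most of these lay at neighbouring genes. Of the Grin1 summits, 5, 6, 8 and 8 in those lists, 4, 5, 7 and 6 lay within 1 kb of another gene's end, such as those of Tprn, Ssna1, Man1b1 and Dpp7. The same held for 5 of 6, 5 of 8, 7 of 13 and 7 of 10 summits near Grin3b, a glycine-binding subunit gene, and for 4 of 7, 8 of 9, 6 of 8 and 6 of 7 near Grin2d. Near Grin2c, also a short gene, it held for 2 of 2, 2 of 4, 2 of 5 and 2 of 4. On counts scaled to list length, the log2 ratio for Silc1-/- over wild type after sham operation was -1.09 for Grin1 and -1.04 for Grin3b. Most of the summits behind these ratios thus belonged to the neighbourhood and not to the receptor genes' own ends or interior.

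Long NMDA genes had their summits inside. Grin2a, on chromosome 16 from 9567901 to 9996083, had 5 summits in Silc1-/- injured, 3 in Silc1-/- sham, 1 in wild-type injured and 3 in wild-type sham ganglia. Only the site at 9723554 was found in all 4 lists, with scores of 9.74, 3.01, 6.67 and 7.08. The other Silc1-/- injured summits sat close together between 9914834 and 9916155, where the Silc1-/- sham and wild-type injured lists had none and the wild-type sham list had 1, with a score of 1.76. Grin2b had 3, 4, 2 and 1 summits and no locus in all 4 lists. Grin3a had 4, 6, 7 and 2, and at its interior site 49688851 on chromosome 4 both injured lists had a summit (5.80 in Silc1-/- injured and 5.92 in wild-type injured) and neither sham list did.

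GABA-A receptor genes had 41 summits in Silc1-/- injured, 41 in Silc1-/- sham, 34 in wild-type injured and 26 in wild-type sham ganglia, a scaled fold of 1.48 for Silc1-/- over wild type after injury and 0.89 after sham operation. Of the 75 summits of the 2 injured lists, 54.7% were in the Silc1-/- list (exact interval 42.75 to 66.21). This interval holds the list-length share of 45.0%. Gabrd, for the delta subunit of extrasynaptic receptors, had 5, 3, 1 and 0, all outside the gene and away from any gene end. With 10 kb to each side Gabrd had 0 in every list. Gabrb1 had 2, 7, 7 and 2, and Gabrg3 1, 5, 3 and 1. Gabra2, an alpha subunit gene known from sensory ganglia, had 4, 3, 3 and 3.

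By the lower score over the 4 lists, the strongest site inside any member was in Gabrg3, at chr 7 position 57373696, 13519 bp from the nearer end of the gene, with scores of 43.4 in Silc1-/- injured, 36.9 in Silc1-/- sham, 33.0 in wild-type injured and 32.2 in wild-type sham ganglia. By that measure it headed the 8 strongest loci near members, and it lies in the window of Gabra5 as well. All others of these lay outside the member they were counted for, and 5 of the 8 were within 200 bp of an end of another coding gene: G3bp1 (near Glra1), Wdr18 (near Grin3b), Msantd4 (near Gria4), Tprn (near Grin1) and Usp28 (near Htr3b). The site near Grik5, at chr 7 position 25077126, was 1432 bp beyond the gene and 1452 bp from Zfp574, with scores of 31.3, 63.6, 72.1 and 47.6.

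The rho subunit genes, known from retinal GABA receptors, had 6, 9, 9 and 7 summits, and the glycine receptor genes 6, 11, 8 and 4. Gabrr2 had 1 in Silc1-/- injured, 2 in Silc1-/- sham, 4 in wild-type injured and 3 in wild-type sham ganglia, with log2 ratios of -1.12 for Silc1-/- over wild type after injury and -1.02 after sham operation. Gabrr3 had 2, 5, 2 and 3 summits, including a site at chr 16 position 59421043 in both sham lists alone (3.01 in Silc1-/- sham and 6.33 in wild-type sham). Glra3, a glycine receptor gene of spinal nociceptive circuits, had 2 summits in the Silc1-/- sham list and 0 in the others, and Glra4 had 4, 4, 4 and 1.

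Nicotinic receptor genes of neurons had 13 summits in Silc1-/- injured, 24 in Silc1-/- sham, 20 in wild-type injured and 14 in wild-type sham ganglia. Chrna3 and Chrnb4, which form the main receptor of autonomic ganglia, shared 1 summit in the Silc1-/- sham list, at chr 9 position 55067655 (score 5.67), and had none in the other lists. Chrna6 had 1, 1, 1 and 0, at a locus that it shares with the window of Chrnb3, and Chrna9, best known from cochlear hair cells, 0, 2, 1 and 2. Chrnb2, the common beta subunit of brain receptors, had 3, 11, 7 and 5, with a log2 ratio of -1.21 for Silc1-/- injured over sham, and its start-site summit was found in the Silc1-/- sham list alone, 143 bp after the start (6.85). Chrna2 had 1, 1, 5 and 3, so both Silc1-/- lists stood below both wild-type lists, with log2 ratios for Silc1-/- over wild type of -1.38 after injury and -1.55 after sham operation. Of these summits 1, 1, 4 and 3 lay outside the gene, away from any gene end. With 10 kb to each side the Chrna2 counts were 0, 0, 1 and 0, so the difference lay in the flanks.

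The muscle genes Chrna1 and Chrnb1 had 4, 6, 6 and 3 and 6, 7, 7 and 9 summits, and 5, 6, 5 and 8 of those near Chrnb1 were within 1 kb of an end of a neighbour such as Polr2a. The serotonin channel genes had few: Htr3a, needed in every 5-HT3 receptor, had 0, 1, 0 and 1 and Htr3b 1, 3, 1 and 1, with the Silc1-/- sham summit of Htr3a counted for both.

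Counts of genes past 2-fold were small and lay on both sides of the background in the 4 comparisons. Of 54 members, 1 was at least 2-fold higher in Silc1-/- injured than in Silc1-/- sham, where 4.74% of coding genes were, and 7 were at least 2-fold lower, where 4.92% were. The lower ones were Chrna9, Chrnb2, Gabrb1, Gabrg3, Glra3, Grik1 and Grik3. For wild-type injured over sham, 0 were higher (5.40% of coding genes) and 4 lower (3.54%): Chrna9, Gabrq, Grin2a and Htr3a. For Silc1-/- over wild type after injury, 4 were higher (4.84%), Gabrd, Gabrp and Grin2a among them, and 3 lower (5.51%), Chrna2, Gabrb1 and Gabrr2. After sham operation 6 were higher (6.81%), Gabrd, Gabrg3, Glra3, Gria1, Grik1 and Grik3, and 6 lower (5.61%), Chrna2, Chrnb1, Gabrq, Gabrr2, Grin1 and Grin3b. With counts this small, several of these genes passed 2-fold on 1 or 2 summits. Grin1, Grin3b and Chrnb1 passed it only after scaling. Their raw counts were 6, 8 and 7 in Silc1-/- sham against 8, 10 and 9 in wild-type sham ganglia.

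Medians over the members were near those of all coding genes: 0.01 against 0.00 for Silc1-/- injured over sham, -0.01 against 0.00 for wild-type injured over sham, 0.03 against 0.00 for Silc1-/- over wild type after injury and 0.00 against -0.07 after sham operation. The Silc1-/- comparisons share lists with each other and with the wild-type ones, so they are not separate evidence. Long genes gave other backgrounds. Of the 21 members over 100 kb, 1 was at least 2-fold higher in Silc1-/- injured than in Silc1-/- sham (3.21% of 2429 coding genes of that length) and 5 were lower (7.00%). In wild-type injured over sham 0 were higher (9.96%) and 1 was lower (3.21%). In Silc1-/- over wild type after injury 2 were higher (6.92%) and 1 was lower (5.93%), and after sham operation 5 were higher (17.0%) and 0 lower (3.21%). The 5 long members of that last comparison thus stood beside a raised share among long genes of any kind.

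**Figure D5:**
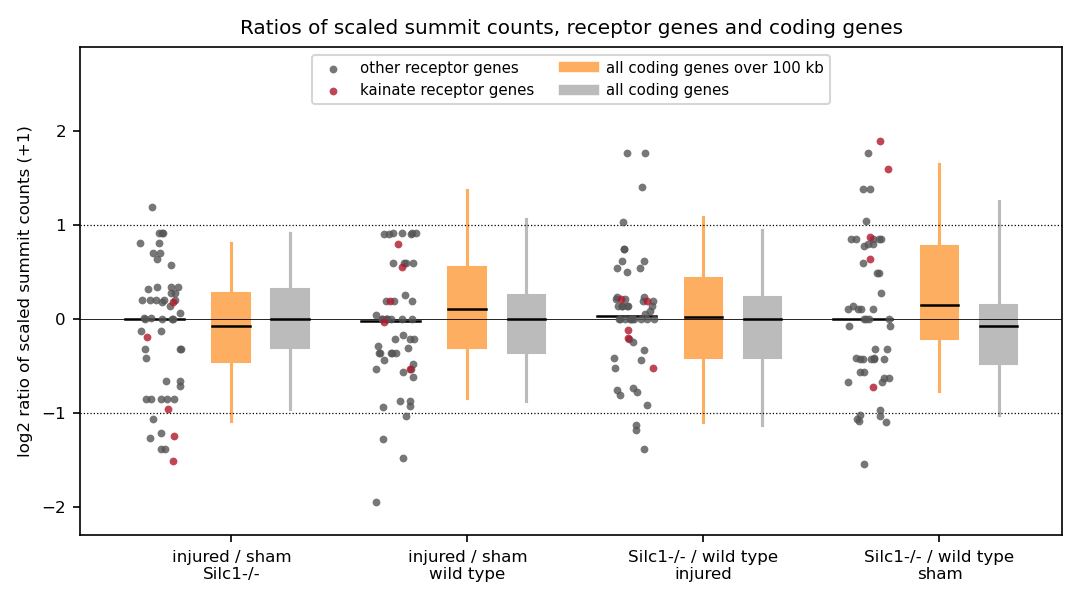
Log2 ratio of scaled summit counts plus 1 (y axis) in 4 comparisons (x axis). Points are receptor genes, kainate genes in red, with a short line at the members' median; boxes show the quartiles and median, and lines the 5th to 95th percentiles, of coding genes over 100 kb and of all coding genes; dotted lines mark 2-fold. The members' medians lie between -0.01 and 0.03, and Grik1 and Grik3 lie above the upper dotted line for Silc1-/- over wild type after sham operation and below the lower one for Silc1-/- injured over sham.

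Genes that work with these receptors gave small counts of called genes, some above and some below the shares of all coding genes. Those shares were 4.74% higher and 4.92% lower in Silc1-/- injured over sham, and 5.40% and 3.54% in wild-type injured over sham. In Silc1-/- over wild type they were 4.84% and 5.51% after injury, and 6.81% and 5.61% after sham operation. Of the 34 auxiliary and anchoring genes, 0 were at least 2-fold higher and 2 lower in Silc1-/- injured over sham, 1 higher and 1 lower in wild-type injured over sham, 2 higher and 1 lower in Silc1-/- over wild type after injury, and 4 higher and 0 lower after sham operation. Of the 26 metabotropic receptor genes, the counts were 0 and 3, 4 and 1, 1 and 2, and 4 and 1 in the same order. Grm7, a long presynaptic glutamate receptor gene, had 5 summits in Silc1-/- injured, 14 in Silc1-/- sham, 2 in wild-type injured and 0 in wild-type sham ganglia, with a log2 ratio of 3.61 for Silc1-/- over wild type after sham operation. Neto2, the kainate receptor partner expressed with Grik1 in sensory neurons, had 3, 2, 3 and 2. For transmitter synthesis and transport the counts were 0 and 0, 2 and 0, 2 and 2, and 3 and 0 of 21 genes; Slc17a6, the vesicular glutamate transporter of most sensory neurons, had 6, 7, 2 and 1 summits. The 6 subunit genes of the same families outside the symbol rule, such as Glrb and Grid1, had 29, 43, 27 and 20 summits in all.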

How the data were processed

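ATAC-seq of mouse dorsal root ganglia gave 12 libraries, 3 in each of 4 groups, grouped by the labels for genotype and treatment. Per the submitters' processing notes, Bowtie2, MACS2 and the mm10 build were used; their versions, the read filters and any transposase shift are not given in those notes or the labels. The authors deposited 1 summit list per group, with positions and a −log10 score, whether of a p-value or a q-value being unstated; the smallest score was just above 1.30, −log10 of 0.05. Read depth is unknown. Since each group has 1 list, no p-value could be computed, and the labels do not say that libraries of a group came from separate animals.

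Genes came from a RefSeq table (GRCm38.p6, the build mm10 is based on), start sites and promoters from the matching RefSeq promoter table. Summits inside a gene or within 50 kb of either end were counted and multiplied by the mean list length over the list's own. Log2 ratios were taken after adding a pseudocount of 1, so genes with few summits have ratios drawn towards 0. A gene was called past 2-fold. Summits within 200 bp were joined to loci, and gene ends took in 1 kb. Exact intervals are Clopper-Pearson. The promoter table matched 39 of 54 members. Some members enter the counts and families but are not reported here one by one.

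The members, gene lists, families and motifs were chosen with earlier results of these data known. Named genes were Grik1, the 12 members with most summits, the 3 highest and 3 lowest log2 ratios of each comparison among members with at least 6 summits, members without summits, and subunits known from sensory ganglia. Named sites were the 8 loci of highest lower score in all 4 lists and 3 in each class of 2 lists; others were named after their values were seen. The CG threshold was also chosen after seeing the data. Steps were tested on simulated data. Alternatives were equal list lengths, a score of at least 5, windows of 10 and 100 kb, gene interiors left out, a pseudocount of 0.5, genes with at least 4 summits, joining at 50 and 500 bp, gene ends of 500 and 2500 bp, and other CG thresholds. Python 3.11.15 was used with numpy 2.4.6, pandas 2.3.3, scipy 1.17.1 and matplotlib 3.10.9.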

Additional observations from a re-analysis of the deposited data

Results flagged for a closer look

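Among 37 members with at least 6 summits over the 4 lists, the injured over sham log2 ratios of the 2 genotypes had opposite signs for 22 (59.5%), against 56.0% of 16921 coding genes with as many summits. For Grin2a the Silc1-/- ratio of 0.91 exceeded the wild-type ratio of -1.48 by 2.40, a gap of more than 2 on the log2 scale, which 2.96% of those coding genes had with opposite signs. It had 5 summits in Silc1-/- injured, 3 in Silc1-/- sham, 1 in wild-type injured and 3 in wild-type sham ganglia. With 1 list a group the difference was not tested, and it rests on fewer than 10 summits in any list.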

How the results depend on the processing

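No paired analysis was possible because each group has 1 list and its column carries no replicate number, and for the same reason no replicate could be left out. Of 144 values of the comparisons under the alternatives, 90 stayed within 1.5 times the value given or, for medians, within their limit, and no median moved. Counts of called genes moved most. For Silc1-/- injured over sham, the 1 higher member became 6 at equal list lengths (6.60% of coding genes), 5 at a score of at least 5 (3.92%), 3 with 100 kb windows (4.63%) and 6 with a pseudocount of 0.5 (7.31%), and the 7 lower became 2 (score, 4.47%), 4 (100 kb, 3.66%) and 13 (pseudocount, 7.50%). For wild-type injured over sham, the 0 higher became 2 at equal lengths (6.84%), 1 by score (3.64%), 5 with 10 kb windows (4.20%), 1 with 100 kb (4.95%), 1 without interiors (5.30%) and 7 with the pseudocount (11.1%), and the 4 lower became 10 at equal lengths (5.31%), 2 by score (1.40%) and 2 with at least 4 summits (3.31%). For Silc1-/- over wild type after injury, the 4 higher became 8 at equal lengths (6.69%) and 2 with 10 kb (4.43%), and the 3 lower 1 at equal lengths (9.59%) and 1 by score (5.55%). After sham operation, the 6 higher became 11 with the pseudocount (10.8%), and the 6 lower 10 at equal lengths (7.01%), 3 by score (2.69%), 3 with 10 kb (6.89%) and 1 with 100 kb (4.67%). The cause was not tested.

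Of 816 values of single genes, 811 stayed within wide counting limits, which do not require the same sign, and 2 moved out of them. Gabrd for Silc1-/- injured over sham went from 0.91 to -0.38 at a score of at least 5, within these limits. Reversal was scored only for ratios past 2-fold, and 3 values reversed. They were Gabrg3 at a score of at least 5 (0.18 for Silc1-/- injured over sham and -0.26 for Silc1-/- over wild type after sham operation) and Glra3 with 100 kb (-0.32 for Silc1-/- over wild type after sham operation). Loci in all 4 lists fell to 27 and those in 1 list rose to 272 when joined at 50 bp, with 34 in wild-type sham alone, 11 in both injured, 14 in both sham and 16 in both Silc1-/- lists; at 500 bp, 8 were in wild-type sham alone and 5 in both sham lists. At a score of at least 5 there were 141 loci, 35 in all 4 lists, 63 in 1 list, 24 in Silc1-/- sham alone, 6 in wild-type sham alone, 2 in both sham, 3 in both Silc1-/- and 5 in both wild-type lists. At equal lengths there were 206, with 89 in 1 list, 27 in Silc1-/- sham alone, 23 in wild-type sham alone, 3 in both injured, 5 in both sham and 14 in both wild-type lists. Members with a summit at an end numbered 11 in wild-type sham within 2500 bp (51.2% of coding genes); 5 in Silc1-/- sham (43.0%), 5 in wild-type injured (46.1%) and 1 in wild-type sham (39.9%) at a score of at least 5; and 6 in Silc1-/- sham (45.2%) and 6 in wild-type injured (47.2%) at equal lengths. In each of these the members' share stayed under that of coding genes.

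Unknown depth, a score that is not comparable between lists and few summits per gene limit every ratio here; without replicate lists no difference can be set against animal variation.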
